A study of Mus musculus with 4 samples.

Results

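The genes described here encode ligands, receptors and inhibitors of the TGF-β and activin pathways, together with the distant family member GDF15. They were chosen by their symbols: Tgfb1, Tgfb2, Tgfb3, Inhba and Gdf15 (ligands), Tgfbr1, Tgfbr2 and Tgfbr3 (receptors), and Fst and Smad7 (inhibitors). All 10 were listed in each of the 4 samples, among 18298 genes with a read in any sample. The samples were cultures of primary rib chondrocytes, the cells that build cartilage, taken from E18.5 embryos on a C57BL/6 background and harvested at passage 1. There were 2 control cultures, Senp6f/f (WT), and 2 mutant cultures, Dermo1-Cre;Senp6f/f (Mut), so both groups carried the floxed Senp6 alleles and the mutant differed by the Cre. SENP6 removes chains of SUMO2/3, small proteins that are attached to other proteins. The Cre recombinase of Dermo1-Cre is driven by Dermo1 (Twist2) in mesenchyme that forms cartilage and bone, and cells of another origin in the cultures would keep Senp6. The study compared the genotypes to find the pathways that Senp6 loss alters.

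TGF-β is secreted in a latent form held in the matrix by latent TGF-β binding proteins, and is released by integrins and thrombospondin. It binds the type II receptor TGFBR2, which recruits and phosphorylates the type I receptor TGFBR1 (ALK5), and the receptor pair phosphorylates SMAD2 and SMAD3. Activin A, a dimer of 2 INHBA chains, signals through its own receptors to the same SMADs, and follistatin (FST) binds and neutralizes it. In cartilage, TGF-β signalling promotes early chondrogenesis and restrains hypertrophy. GDF15 is secreted by stressed cells, signals through the brainstem receptor GFRAL, and is a known target of p53 and of the stress factors ATF4 and CHOP.

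Reads counted on genes numbered 2.1e+07 to 3.1e+07 per sample. Levels are given as RPKM, the reads of a gene scaled to its length and to all counted reads of the sample, and differences as log2 fold changes of the mutant over the control from the quasi-likelihood test of edgeR on the counts. No gene of the 14123 tested passed an adjusted p of 0.05 in that test (0% called), while 2199 genes (15.6%) had an unadjusted p below 0.05. DESeq2 on the same counts called 697 genes (4.94%). The verdict on every gene below is therefore given for both tools. In the mutant cultures Senp6 had RPKM values of 12.02 and 8.07, against 10.8 and 18.0 in the controls. These groups overlap (edgeR log2 fold change -0.56, standard error 0.28, adjusted p = 0.41). Reads from exons outside the deleted part would still be counted, but reads were not split by exon. The cause of the overlap was not tested. Control replicate 1 stood apart from the other 3 samples: its Euclidean distance to control replicate 2 on the log2(RPKM + 1) scale was 39.5, above the 33.0 between control replicate 2 and mutant replicate 1. Mutant replicate 2 alone held Xist reads (11354, against 2 to 5 elsewhere), RNA made from the inactive X chromosome. All 12 chondrocyte markers tested, Col2a1, Sox9 and Acan among them, were lower in both mutants than in both controls, beside 22.8% of all genes. Their summed RPKM was 1008 to 1039 in the controls and 514 to 646 in the mutants. In bulk cultures, fewer cells of a type and less RNA per cell cannot be told apart.

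The sequences upstream of the transcription start are shown for Gdf15 and Inhba, the ligand genes with the highest fold changes among the 10 genes, and for Tgfb1, whose level did not separate the genotypes. RefSeq windows on GRCm38.p6 were found for 6 of the 10 genes. Fst, Tgfb3, Tgfbr3 and Smad7, whose levels all separated the genotypes, had none. Of the genes that separated the genotypes, the windows therefore cover Gdf15 and Inhba only. Each sequence is the 250 bases before the start, written 5′ to 3′ on the gene's own strand, with motif matches in capitals. The Gdf15 window lies at chr8:70632457-70632706 on the minus strand, outside any annotated gene. The Inhba window lies at chr13:16011601-16011850 on the plus strand, within the annotated transcript B230303A05Rik. The Tgfb1 window lies at chr7:25686752-25687001 on the plus strand, outside any annotated gene.
Gdf15: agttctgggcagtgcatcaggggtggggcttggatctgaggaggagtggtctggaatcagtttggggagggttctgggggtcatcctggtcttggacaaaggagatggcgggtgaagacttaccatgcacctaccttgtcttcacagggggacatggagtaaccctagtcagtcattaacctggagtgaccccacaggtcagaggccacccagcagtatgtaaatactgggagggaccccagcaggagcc
Inhba: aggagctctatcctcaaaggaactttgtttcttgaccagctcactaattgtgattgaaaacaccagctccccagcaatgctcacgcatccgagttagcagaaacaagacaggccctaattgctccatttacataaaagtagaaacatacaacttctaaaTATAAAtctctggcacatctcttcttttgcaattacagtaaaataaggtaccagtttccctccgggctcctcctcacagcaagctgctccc
Tgfb1: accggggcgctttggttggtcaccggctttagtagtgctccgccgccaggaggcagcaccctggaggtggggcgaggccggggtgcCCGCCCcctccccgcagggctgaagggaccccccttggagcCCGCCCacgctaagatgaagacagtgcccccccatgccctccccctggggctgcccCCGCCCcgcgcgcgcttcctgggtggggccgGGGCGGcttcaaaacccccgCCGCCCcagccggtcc
The searched motifs, on both strands, were the TATA box (TATAAA), the GC box (GGGCGG), the AP-1 site (TGANTCA), the CRE (TGACGTCA), the SMAD palindrome (GTCTAGAC) and the p53 half-site, and no 2 matches overlapped in these windows. The Inhba window held 1 match, a TATA box that starts 91 bases before the transcription start. The Tgfb1 window held 5 GC boxes. The Gdf15 window held no match to these letters. Of the windows not shown, Tgfb2 held a TATA box, Tgfbr1 2 GC boxes and Tgfbr2 a p53 half-site. A TATA box was found in 12.4% of the 32851 windows of all genes and a GC box in 32.7%, while the AP-1 site was in 6.75%, the CRE in 1.55%, the SMAD palindrome in 0.167% and the p53 half-site in 7.13%. The base composition also differed: the G and C bases made up 75.2% of the Tgfb1, 56.4% of the Gdf15 and 43.2% of the Inhba window. The median over all windows was 52.4%. Other genes whose levels did not separate the genotypes had 53.6% (Tgfb2), 58.4% (Tgfbr2) and 74.8% (Tgfbr1). The windows held 1 CpG for Gdf15, 3 for Inhba, 8 for Tgfb2, 12 for Tgfbr2, 21 for Tgfb1 and 29 for Tgfbr1. A second window, inside the gene, had 52.8% and 3 CpG for Tgfbr1, and 56.4% and 6 CpG for Gdf15. These are features of the letters only, as binding was not measured.

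Per gene length, the receptor Tgfbr2 and the ligand Tgfb3 had the highest levels of the 10 genes in the control cultures, with mean RPKM values of 82.7 and 81.4. The ranges of these genes over the control samples overlapped. Tgfb1 (43.4) and the co-receptor Tgfbr3 (40.8) followed and also overlapped each other. Fst was at 29.5, above Tgfb2 (20.2) and Inhba (16.6), whose ranges overlapped. Tgfbr1 (7.43), Smad7 (4.69) and Gdf15 (2.02) were lowest, each apart from the next. In the mutant cultures the order differed at several places: Tgfb3 (108) was above Tgfbr2 (84.9) in both samples, Inhba (37.3) was above Tgfbr3 (30.3), and Gdf15 (9.56) reached the level of Tgfbr1 (7.83), with overlapping ranges. The deposited gene lengths set these levels. The length used for Inhba was 1529 bases, while the GENCODE exons of the gene cover 6390 bases. For Tgfb1 these were 2094 and 5042, and for Fst 2337 and 4589, but for Tgfb3 they were close (3401 and 3383). The order, the sizes of the isoform shares and the level of Inhba relative to Fst therefore depend on which part of each gene was counted.

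**Figure D1:**
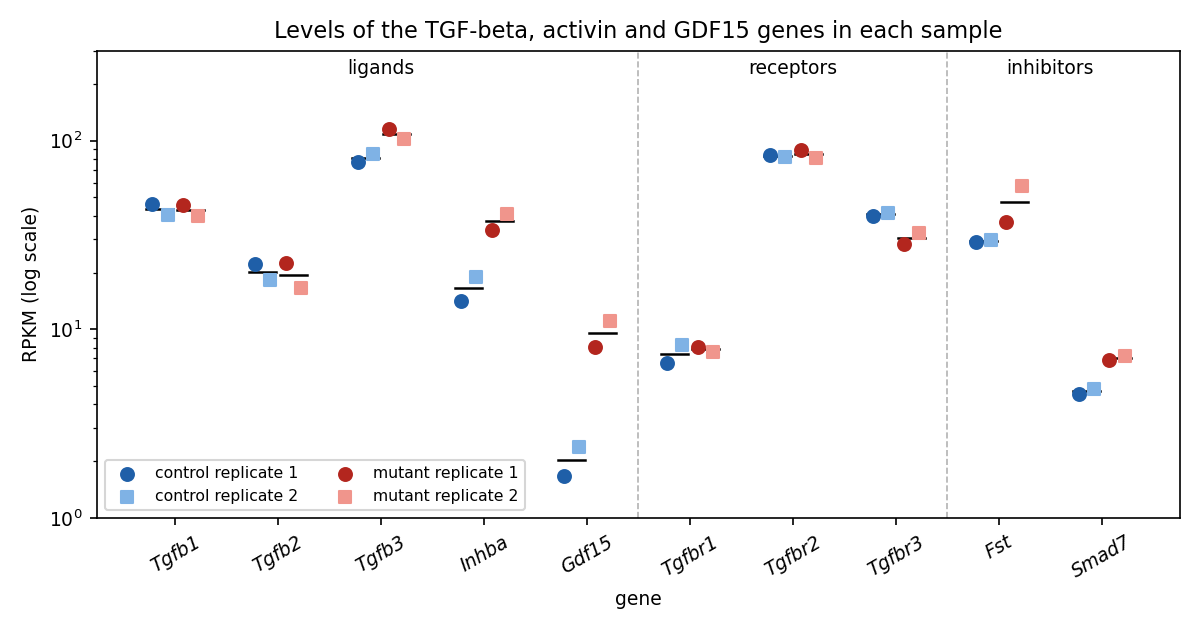
RPKM on a log axis of the 10 genes in each sample, grouped as ligands, receptors and inhibitors; points are single samples and black bars are the means of the 2 samples of a genotype. Gdf15 and Inhba lie higher in both mutant samples, at 8.01 to 11.1 and 33.6 to 41.1, than in both controls, while Tgfbr3 lies lower and the points of Tgfb1, Tgfb2, Tgfbr1 and Tgfbr2 overlap.

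Of the 10 genes, 5 had higher TMM-scaled counts in both mutant cultures than in both controls (Gdf15, Inhba, Fst, Smad7 and Tgfb3), 1 had lower counts in both (Tgfbr3), and 4 overlapped. Among all genes tested, 25.4% were higher in both mutants in this sense and 22.8% were lower. In edgeR 0 of the 10 passed an adjusted p of 0.05, and 6 had an unadjusted p below 0.05, beside 15.6% of all genes. DESeq2 called 2 of them higher, Gdf15 and Inhba, against 3.07% of all genes, and 1 lower, Tgfbr3, against 1.86% of all genes. The median log2 fold change of the 10 genes was 0.20, beside 0.0097 over all genes tested. Of the 10 genes, 2 (Gdf15 and Inhba) passed in edgeR when low genes were not filtered out, where 1.56% of all genes were called, and with the replicate number in the fit, where 0.828% were. Among the fits without 1 sample, edgeR called 2 of the 10 without control replicate 1 (4.55% of all genes), 4 without control replicate 2 (19.6%), 3 without mutant replicate 1 (2.62%) and 1 without mutant replicate 2 (0.766%). A fit without 1 sample took the spread of that genotype from the other genotype, so its calls are no check of the full fit. The genes were picked with results of these data known, so these counts describe them and are not a test of the group.

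Gdf15 had the largest fold change of the 10 genes. The gene lies on chromosome 8 from 70629393 to 70632456 (GRCm38, minus strand) and shares no exon bases with another annotated gene. Its reads numbered 38 and 67 in the control samples and 269 and 340 in the mutant samples, or RPKM values of 1.67, 2.36, 8.01 and 11.1. The lowest mutant value was thus more than 3 times the highest control value. The mutant mean RPKM of 9.56 ± 2.19 (SD, n = 2) was 4.74 times the control mean of 2.02 ± 0.493 (SD, n = 2). The log2 fold change was 2.19 (standard error 0.28, edgeR adjusted p = 0.0775), which ranked 161st of 14123 genes from the most increased. DESeq2 called it higher (log2 fold change 2.18, adjusted p = 6.66e-07). When 1 sample was left out in turn, the log2 fold change stayed between 1.97 and 2.41. Reads covered 93.4% and 96.2% of the gene's length in the controls and 99.2% and 98.1% in the mutants.

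Genes known to share regulators with Gdf15 were read beside it. Of 15 listed p53 target genes, 13 were higher in both mutant cultures and 1, Sesn1, was lower, beside 25.4% and 22.8% of all genes tested. DESeq2 called 8 of them higher, beside 3.07% of all genes, and none lower. The edgeR test called none at an adjusted p of 0.05, with 12 below an unadjusted p of 0.05, beside 15.6% of all genes. The p53 list had a median log2 fold change of 0.78 in edgeR. The DESeq2 calls included Pmaip1, a pro-apoptotic BH3-only gene (log2 fold change 3.53 in edgeR), Cdkn1a, which encodes the cell cycle inhibitor p21 (1.02), Ccng1 (0.88), and Mdm2, the ubiquitin ligase of p53 (0.85). The others were Btg2 (0.95), the receptor gene Eda2r (0.95), Zmat3 (0.78) and Phlda3 (0.53). The list of ATF4 and CHOP targets held the genes of both factors themselves and shared 1 gene with the p53 list. Of its 12 tested genes, neither tool called any, beside 0% of all genes in edgeR and 4.94% in DESeq2. In edgeR 0 of the 12 genes had an unadjusted p below 0.05, beside 15.6% of all genes. Their median log2 fold change was 0.15, and the values ran from -0.35 to 0.51. Both mutant samples were higher for 4 of the 12 and lower for 1, beside 25.4% and 22.8% of all genes. The p53 genes of this study had been examined before these lists were drawn up. Gfral, the GDF15 receptor, had no read in any sample, and its signalling partner Ret was at an RPKM of 0.259 and 0.433 in the controls and 0.927 and 1.45 in the mutants (DESeq2 adjusted p = 0.00135, edgeR adjusted p = 0.0970).

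Inhba, the chain that forms activin A, was higher in both mutant cultures. It lies on chromosome 13 from 16011851 to 16031621 (plus strand) with no exon bases shared with another gene. The controls held 456 and 757 reads and the mutants 1592 and 1774. The RPKM values were 14.2 and 18.9 in the controls and 33.6 and 41.1 in the mutants, and the groups did not overlap. The mutant mean of 37.3 ± 5.29 (SD, n = 2) was 2.25 times the control mean of 16.6 ± 3.36 (SD, n = 2). On the log2 scale the edgeR difference was 1.13 ± 0.18 (standard error, adjusted p = 0.0833), and DESeq2 called it higher (adjusted p = 2.23e-05). Without mutant replicate 2 the log2 fold change was 1.004. Leaving out any other sample gave 0.96 to 1.29. The fits that left 1 sample in a genotype assumed that it varied like the other genotype.

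The other activin and inhibin chains differed in level. Inhbb, the chain of activin B, had RPKM values of 6.04 and 5.51 in the controls and 12.7 and 18.54 in the mutants. DESeq2 called it higher (adjusted p = 7.52e-07), while edgeR gave a log2 fold change of 1.39 with a standard error of 0.20 and an adjusted p of 0.0789. Inha, the inhibin chain, had RPKM values of 3.01 to 3.53 with overlapping groups (log2 fold change -0.029). Inhbc and Inhbe had at most 4 reads in a sample. Among the remaining ligands of the list, Gdf11 had overlapping groups (log2 fold change -0.15), and Mstn, Nodal, Gdf1 and Gdf3 were too low to be tested. Of the 11 other ligands 5 were tested, and DESeq2 called 1 of these higher, Inhbb, beside 3.07% of all genes. Inhbb was also the 1 that was higher in both mutants, beside 25.4% of all genes.

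Fst, which encodes follistatin, the extracellular antagonist of activin, was also higher in both mutant cultures, with more spread. The gene lies on chromosome 13 from 114452290 to 114458951 (minus strand). Its RPKM was 29.2 and 29.8 in the controls and 36.9 and 57.5 in the mutants. Mutant replicate 2 was thus well above mutant replicate 1, while the controls lay close together. The log2 fold change was 0.63 (standard error 0.21, edgeR adjusted p = 0.217, DESeq2 adjusted p = 0.0952). It was 0.31 without mutant replicate 2 and 0.91 without mutant replicate 1. Fstl3, a second activin-binding antagonist, had RPKM values of 3.31 and 4.25 in the controls and 7.88 and 8.05 in the mutants (log2 fold change 1.03, standard error 0.20, edgeR adjusted p = 0.0943, DESeq2 adjusted p = 0.00449). Skeletal muscle also expresses Fst. Its markers were higher in both mutants for 7 of 10 genes and lower for 0, beside 25.4% and 22.8% of all genes. Their summed RPKM was 35.8 to 101.4 in the controls and 183 to 202 in the mutants, and their part in the Fst values was not tested.

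Inhba was set against Fst as a ratio of their RPKM in each sample. On the log2 scale the ratio was -1.04 and -0.66 in the controls and -0.14 and -0.48 in the mutants. At the deposited gene lengths the Inhba level was below the Fst level in all 4 samples. The ratio was higher in both mutants than in both controls. The mean difference was 0.54 on the log2 scale. The exact permutation test (2-sided) gave p = 0.333, the smallest value that 2 against 2 samples allow. The same exact permutation test was run on 6 such quantities, among them the isoform shares and sum given next and the ratio of Tgfbr3 to Tgfbr2. Each gave p = 0.333 in the exact test, also after Benjamini-Hochberg adjustment.

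**Figure D2:**
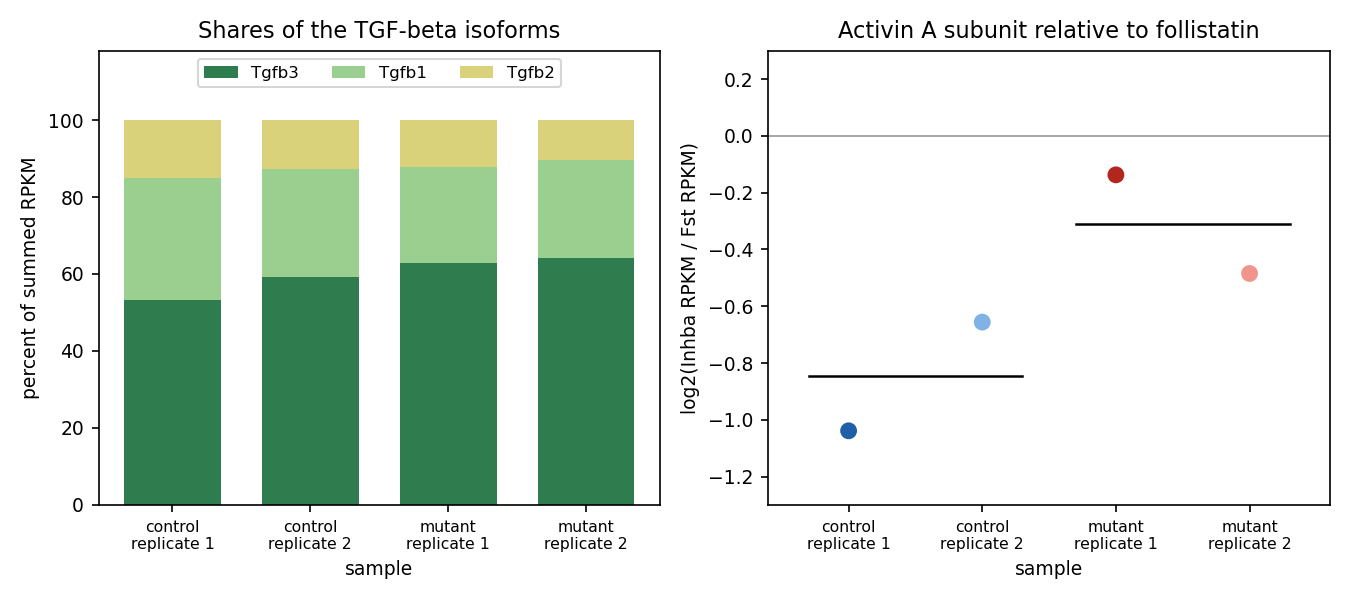
Left, percent of the summed RPKM of Tgfb1, Tgfb2 and Tgfb3 held by each isoform in every sample (bars start at 0); right, log2 ratio of Inhba to Fst RPKM per sample, with black lines at the genotype means. Tgfb3 holds 53.1 and 59.2 percent in the controls and 62.8 and 64.2 percent in the mutants, and the Inhba to Fst ratio is below 0 in all samples and higher in the mutants.

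None of the TGF-β isoforms passed the test in either tool. Tgfb3, on chromosome 12 from 86056745 to 86079041 (minus strand), had RPKM values of 77.6 and 85.1 in the controls and 115 and 102 in the mutants. The groups did not overlap, and the log2 fold change was 0.37 (standard error 0.13, edgeR adjusted p = 0.251, DESeq2 adjusted p = 0.246). Opposite-strand genes cover 12.4% of its exon bases, and their reads cannot be told apart from those of Tgfb3 if strand was not recorded. Tgfb1, on chromosome 7 from 25687002 to 25705077 (plus strand), had RPKM values of 46.2 and 40.5 in the controls and 45.5 and 40.1 in the mutants. Its groups overlapped almost fully (log2 fold change -0.063, standard error 0.15, edgeR adjusted p = 0.886). Macrophage markers, from cells that also make TGF-β1, were lower in both mutants for all 7 tested genes of 9, beside 22.8% of all genes. Their summed RPKM was 19.6 to 22.7 in the controls and 8.74 to 12.8 in the mutants. The pan-leukocyte marker Ptprc had 3 to 6 reads in each sample. The part of these cells in the Tgfb1 level was not tested. Tgfb2, on chromosome 1 from 186622792 to 186705989 (minus strand), had RPKM values of 22.2 and 18.2 in the controls and 22.5 and 16.5 in the mutants, with overlapping groups (log2 fold change -0.089, standard error 0.20, edgeR adjusted p = 0.88).

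Tgfb3 thus took a larger share of the summed isoform RPKM in the mutants, 62.8% and 64.2%, than in the controls, 53.1% and 59.2%. The share of Tgfb1 was 31.7% and 28.2% in the controls and 24.9% and 25.3% in the mutants. The share of Tgfb2 was 15.2% and 12.6% against 12.3% and 10.4%. The mean share of Tgfb3 differed by 7.36 percentage points, compared with a SD of 4.28 between the controls, and by 4.33 points without control replicate 1. The summed RPKM of the isoforms was 146 and 144 in the controls and 183 and 158 in the mutants.

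Of Tgfbr1, Tgfbr2 and Tgfbr3, only Tgfbr3 separated the genotypes. Tgfbr3 encodes betaglycan, a co-receptor that presents TGF-β, above all TGF-β2, to TGFBR2 and also binds inhibin. It lies on chromosome 5 from 107106570 to 107289629 (minus strand) and shares 4.54% of its exon bases with Gm43422 on the same strand. Its RPKM was 40.0 and 41.6 in the controls and 28.2 and 32.4 in the mutants, so that the highest mutant value lay below the lowest control value. The mutant mean of 30.3 ± 2.96 (SD, n = 2) was 0.744 of the control mean of 40.8 ± 1.16 (SD, n = 2). The log2 fold change was -0.47 (standard error 0.13, edgeR adjusted p = 0.157), and DESeq2 called it lower (log2 fold change -0.49, adjusted p = 0.0381). When 1 sample was left out in turn, the edgeR log2 fold change ran from -0.55 to -0.39. Relative to Tgfbr2, the log2 ratio of Tgfbr3 RPKM was -1.07 and -0.97 in the controls and -1.66 and -1.32 in the mutants. The chondrocyte markers given above were lower in the same samples, and their part in the Tgfbr3 values was not tested.

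The signalling receptors Tgfbr1 and Tgfbr2 had overlapping groups. Tgfbr2, on chromosome 9 from 116084293 to 116175360 (minus strand), had RPKM values of 83.6 and 81.7 in the controls and 89.1 and 80.7 in the mutants, and edgeR put the difference at -0.0040 on the log2 scale (standard error 0.13, adjusted p = 0.991). Tgfbr1, on chromosome 4 from 47353222 to 47414931 (plus strand), had RPKM values of 6.60 and 8.27 in the controls and 8.08 and 7.58 in the mutants, a log2 difference of 0.035 in edgeR (standard error 0.15, adjusted p = 0.936). The sign of the small values of Tgfb1, Tgfb2, Tgfbr1 and Tgfbr2 changed with the sample left out. The activin type I receptor Acvr1b was lower in both mutants, with RPKM values of 10.2 and 7.02 in the controls and 6.10 and 6.07 in the mutants (log2 fold change -0.54, standard error 0.21, edgeR adjusted p = 0.29, DESeq2 adjusted p = 0.263). Leaving out control replicate 1 gave an edgeR value of -0.22, and leaving out control replicate 2 gave -0.84. The type II receptor Acvr2a had 4.96 and 4.36 against 3.34 and 2.85 (log2 fold change -0.63, standard error 0.17, edgeR adjusted p = 0.16, DESeq2 adjusted p = 0.0768). Acvr2b was below an RPKM of 1 in all samples, at 0.453 to 0.723. Of the 7 other receptors and co-receptors tested, 4 were lower in both mutants and 1, Ret, was higher, beside 22.8% and 25.4% of all genes. The median log2 fold change of these receptors was -0.28. DESeq2 called Ret higher and no other of these, beside 3.07% of all genes called higher and 1.86% called lower.

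**Figure D3:**
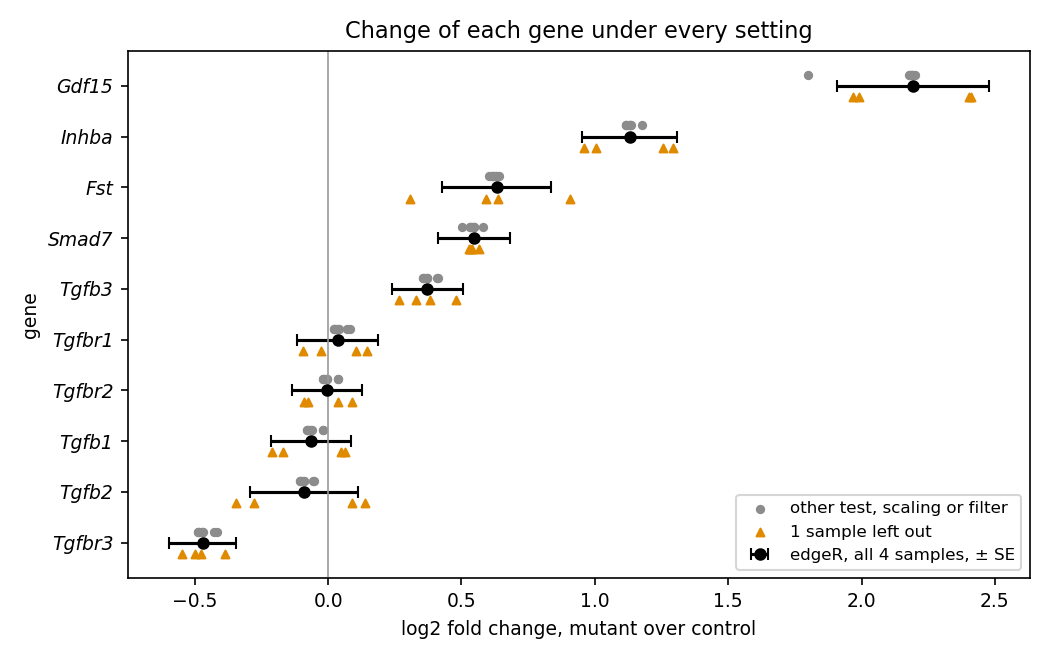
Log2 fold change of the mutant over the control for each of the 10 genes; black points with bars are the edgeR values ± standard error with all samples, grey points are other tests, scalings and filters, and orange triangles are fits without 1 sample. Gdf15 (1.80 to 2.41), Inhba (0.96 to 1.29), Fst, Smad7 and Tgfb3 stay above 0 and Tgfbr3 below 0 in every setting, while the values of the other 4 genes cross 0.

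Inside the cell, SMAD7 is the inhibitory SMAD that blocks TGF-β receptors and is itself induced by TGF-β signalling. The Smad7 gene, on chromosome 18, had RPKM values of 4.55 and 4.83 in the controls and 6.91 and 7.21 in the mutants. Its replicates lay close together, differing by 0.028 in the controls and 0.025 in the mutants on the log2 scale of TMM-scaled counts. The log2 fold change was 0.55 (standard error 0.13, edgeR adjusted p = 0.135, DESeq2 adjusted p = 0.0985), so neither tool called it. The log2 fold change of the 4 fits without 1 sample was 0.53 to 0.57. Smad6, the inhibitory SMAD that acts mainly on BMP signalling, had overlapping groups (RPKM 14.9 and 9.10 against 10.3 and 10.9). So did Skil, which encodes the SMAD co-repressor SnoN (1.85 and 3.29 against 4.63 and 3.03), and Pmepa1, a membrane protein that sequesters SMADs (28.9 and 36.7 against 53.5 and 37.0). For both, mutant replicate 1 was the highest of the 4 samples. Of 11 other inhibitors, 4 were higher and 1 was lower in both mutants, beside 25.4% and 22.8% of all genes. DESeq2 called 1 of them higher, Fstl3, beside 3.07% of all genes.

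The signal-carrying SMADs varied little. Smad2 had RPKM values of 5.83 and 6.78 in the controls and 7.27 and 7.24 in the mutants (log2 fold change 0.16, edgeR adjusted p = 0.622). Smad3 (0.12) and Smad4 (0.073) had overlapping groups. None of the 5 tested SMADs and partners was called by either tool, beside 0% of all genes in edgeR and 4.94% in DESeq2. In edgeR 0 had an unadjusted p below 0.05, beside 15.6% of all genes. The log2 fold changes of the list ran from 0.073 to 0.21. The RNA level of a SMAD does not report its phosphorylation.

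The 13 genes listed for latency and activation of TGF-β had a median log2 fold change of 0.39. Thbs1, whose product thrombospondin-1 can activate latent TGF-β, had RPKM values of 311 and 357 in the controls and 669 and 782 in the mutants. Its log2 fold change was 1.08 (standard error 0.14, edgeR adjusted p = 0.0775), and DESeq2 called it higher (adjusted p = 6.55e-09). Lrrc32, which encodes GARP, a cell-surface anchor of latent TGF-β, had 34.0 and 75.4 in the controls and 119 and 108 in the mutants (log2 fold change 1.02, standard error 0.33, edgeR adjusted p = 0.212, DESeq2 adjusted p = 0.0167). The edgeR value was 0.57 without control replicate 1, the lowest sample, and 1.64 without control replicate 2. Ltbp2 had 104 and 122 against 169 and 234 (log2 fold change 0.79, edgeR adjusted p = 0.117, DESeq2 adjusted p = 0.00249). LTBP2 belongs to the latent TGF-β binding proteins by sequence but does not bind latent TGF-β. Its gene is counted in this list all the same, and also in the list of TGF-β targets below. The binding proteins Ltbp1 and Ltbp3 had overlapping groups: Ltbp1 had RPKM values of 32.2 and 74.5 against 62.1 and 96.5, and Ltbp3 had 81.5 and 67.4 against 71.8 and 72.6. Of the 13 genes of the latency and activation list, 7 were higher and 1 was lower in both mutants, beside 25.4% and 22.8% of all genes. DESeq2 called 3 of them higher, beside 3.07% of all genes. The edgeR test passed none at an adjusted p of 0.05, with 8 below an unadjusted p of 0.05, beside 15.6% of all genes.

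**Figure D4:**
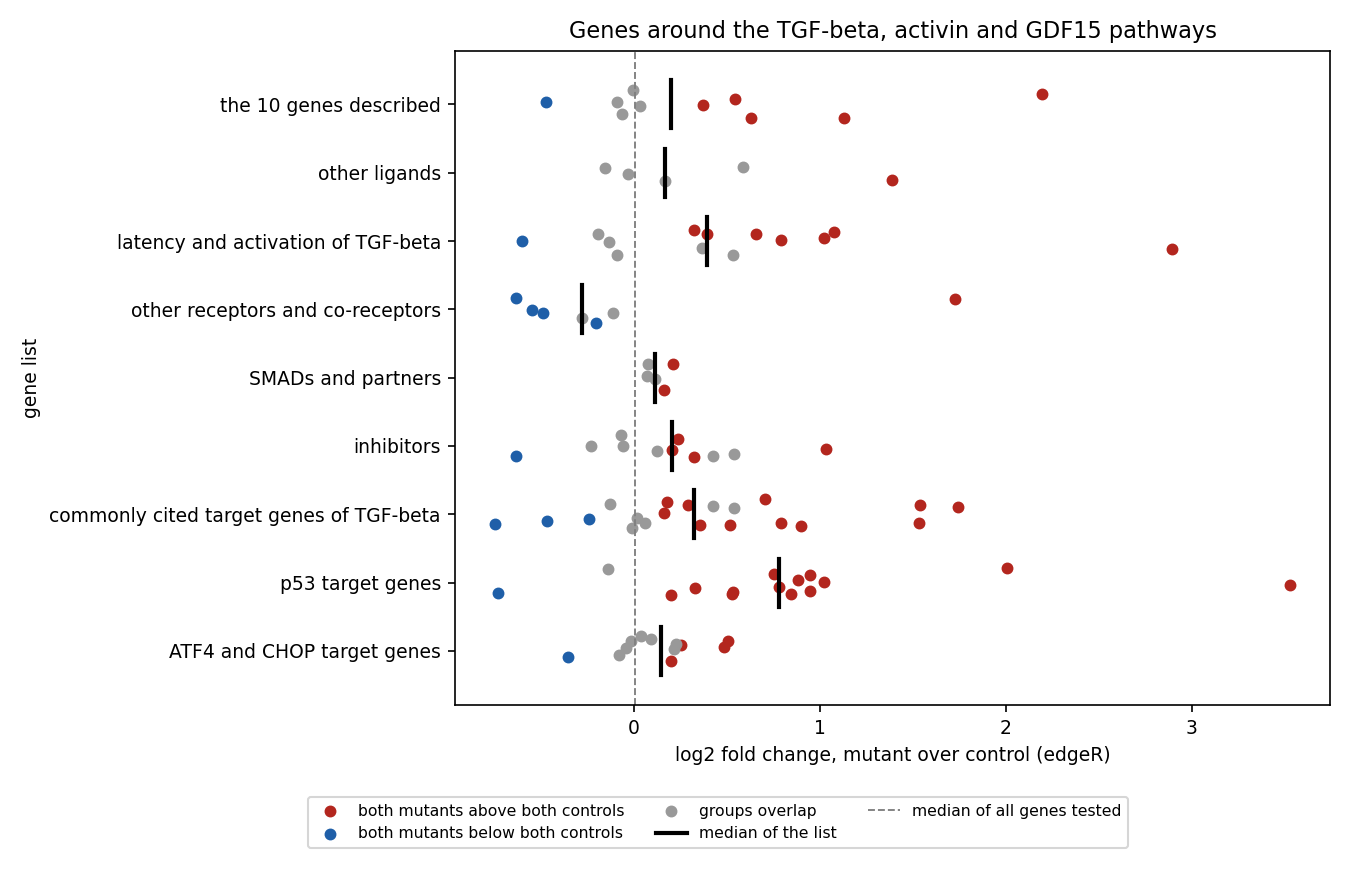
Log2 fold change in edgeR of each tested gene of the 10 described and of 8 lists around them; red and blue points are genes higher or lower in both mutants than in both controls, grey points overlap, black bars are list medians and the dashed line is the median of all genes tested. The p53 target list has the highest median (0.78), the receptor list is the one below 0 (-0.28), and the ATF4 and CHOP list sits at 0.15.

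Genes often cited as targets of TGF-β gave a mixed picture. Ctgf (CCN2), a matricellular protein, had RPKM values of 39.5 and 59.3 in the controls and 120 and 174 in the mutants (log2 fold change 1.53, standard error 0.24, edgeR adjusted p = 0.0833, DESeq2 adjusted p = 4.93e-08). DESeq2 also called Prg4 (edgeR log2 fold change 1.74), a lubricin of joint surfaces, Cnn1 (0.90) and Tagln (0.52), both actin-binding proteins of contractile cells, Ltbp2, and Timp1 (0.70), an inhibitor of metalloproteinases. In contrast, Tgfbi, a matrix protein named for its induction by TGF-β, was not higher. Its RPKM was 171 and 151 in the controls against 150 and 131 in the mutants. The mutants were lower only narrowly, and neither tool called the gene (log2 fold change -0.24, edgeR adjusted p = 0.513, DESeq2 adjusted p = 0.618). Snai2, a transcription factor, was called lower by DESeq2 (log2 fold change -0.74 in edgeR, adjusted p = 0.0427 in DESeq2). In all, 11 of the 20 tested target genes were higher and 3 were lower in both mutants, beside 25.4% and 22.8% of all genes. DESeq2 called 7 higher and 1 lower, beside 3.07% and 1.86% of all genes. The edgeR test called none at an adjusted p of 0.05, with 9 below an unadjusted p of 0.05, beside 15.6% of all genes. The median log2 fold change was 0.33. Several of these genes respond to other signals as well, which RNA levels cannot separate.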

How the data were processed

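RNA of 4 chondrocyte cultures, 2 per genotype, was sequenced by a service (BGI) after poly(A) selection. Per the file headers, the authors deposited raw counts of reads per gene, with no normalization. The authors also deposited the RPKM, the count scaled to the listed gene length and to the summed counts of the sample, and the percent of that length covered by reads. mm9 and SAMtools are named in the submitters' processing notes, and the aligner, the counting tool and the use of strand are not given in the sources used here. Genes missing from a sample's list were set to 0. Gene coordinates and exons were read from GENCODE M21 (GRCm38) by Entrez Gene identifier and symbol, and upstream windows from RefSeq (GRCm38.p6). None of them is an mm9 coordinate.

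Counts were tested with edgeR 4.0.16 in R 4.3.3 (TMM, robust quasi-likelihood fit, genotype as the only term) over the 14123 genes that reached 10 counts in 2 or more samples, with Benjamini-Hochberg adjustment over all of them. All 10 genes described passed this filter. The F statistic gave the standard errors. Alternatives were DESeq2 1.42.0, RLE scaling, no filter, 10 counts in every sample, no robust option, limma 3.58.1 on log2(RPKM + 1) and log2(RPKM + 0.1), fits lacking 1 sample, and a block for replicate number. The code was tested on simulated data. With 2 samples per genotype an exact permutation test cannot give a p below 0.333. The study calls its replicates of cultured cells biological, but whether each culture came from its own embryo or litter is not given in the sources used here, and p values measure the spread between these samples. Replicate pairs differed by far more than sampling noise (chi-square per degree of freedom of 49.7 and 24.0).

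The 10 genes and all lists were chosen with earlier results of these data known. Named beside the 10 genes were 17 listed pathway genes whatever their result and any other list gene with an adjusted p below 0.05 in edgeR, DESeq2 or the block fit, of which 1 is not reported here; Inha, Inhbc, Inhbe, Mstn, Nodal, Gdf1, Gdf3, Gfral and Sesn1 were named after their values were seen. Of the marker lists, 4 of 5 tested osteoblast genes were lower in both mutants and 1 was higher (summed RPKM 482 to 538 in the controls, 498 to 642 in the mutants). Of 6 tendon and fibroblast genes 2 were higher and 1 was lower (396 to 517 and 767 to 963). Of 4 tested endothelial genes 1 was higher and 1 was lower (0.901 to 1.57 and 0.947 to 1.06), and no red blood cell gene reached the count filter. These counts stand beside 25.4% of all genes tested that were higher in both mutants and 22.8% that were lower.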

Additional observations from a re-analysis of the deposited data

How the results depend on the processing

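The 10 genes were followed through 12 alternatives. The log2 fold change kept its sign for 6 of them (Gdf15, Inhba, Fst, Smad7, Tgfb3 and Tgfbr3). Genes past an adjusted p of 0.05 numbered 0 in the edgeR fit, 697 with DESeq2, 286 without a filter on low counts and 117 with the replicate block, and 0 under the other scaling, the stricter filter, no robust option and both limma fits. Of the 10 genes, 3 passed with DESeq2 and 2 each without a filter and with the replicate block (Gdf15 and Inhba). Without 1 sample the number of genes ran from 105 to 2740 and that of the 10 genes from 1 to 4. The lowest were without mutant replicate 2 and the highest without control replicate 2, and the cause was not tested. The replicate numbers did not show a pairing: the difference of replicate 1 from 2 in the controls correlated with that in the mutants at -0.0654 over 14123 genes.

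Some values changed sign. Most of these were near 0 with all samples, while Smad6 was at -0.23. Tgfbr2 was 0.036 in both limma fits. Without 1 sample Tgfb1 ran from -0.21 to 0.061, Tgfb2 from -0.35 to 0.14, Tgfbr1 from -0.096 to 0.15, Tgfbr2 from -0.091 to 0.089, Ltbp3 from -0.27 to 0.082, Smad3 from -0.054 to 0.28, Smad4 from -0.017 to 0.17 and Smad6 from -0.59 to 0.20. The isoform shares and the Inhba to Fst ratio kept their direction under every alternative run. With 38 reads in the shallowest sample, Gdf15 is the least precisely counted of the 10 genes.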
